A study of Mus musculus with 19 samples.

Results

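The 6 Het livers of this mouse study fall into a set with low mouse numbers (mice 4, 6 and 7) and a set with high mouse numbers (mice 14, 19 and 20). They are 6 of the 19 livers of the series, 1 RNA-seq library per mouse, and were chosen by genotype and by the number that ends each sample title. All 6 mice carry the label Het for Pkd1 with AAV-Cre, an adeno-associated virus that delivers Cre recombinase, and all received a Western diet with carbon tetrachloride (CCl4), a model of nonalcoholic steatohepatitis (NASH), for 3 months. The WT livers (mice 1 to 3 and mice 9, 11, 12 and 13) and the Homo livers (mice 8 and 10 and mice 15 to 18) had the same virus and treatment, and are used here only where the Het sets are set beside them. Per the design text the mice were littermates. The sources used here do not give sex, age, litter, batch, date, strain, the deleted part of Pkd1, how the virus was delivered, its promoter, or what the mouse number stands for. Each set has 3 mice, and a p-value here measures a difference between these sets of mice and not an effect of a treatment.

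Genes that follow the state of the whole animal vary between livers of 1 genotype. Clock genes follow the time of day, gluconeogenic genes and targets of the glucocorticoid receptor follow fasting and stress hormones, sterol and fatty acid synthesis genes follow feeding through SREBP factors, and chaperones of the endoplasmic reticulum (ER) follow its load of secreted proteins. Serpin genes of the Serpina family lie in a cluster on mouse chromosome 12, encode secreted protease inhibitors made by hepatocytes, and differ in number and sequence between mouse strains.

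Library totals were 31.0, 30.9 and 25.8 M counts in mice 4, 6 and 7 and 33.3, 36.9 and 39.2 M in mice 14, 19 and 20, so depth did not overlap between the sets. Levels are given as CPM (counts per 1 M counts of the library) after TMM scaling. Pkd1, the targeted gene, was at 339, 439 and 339 CPM in mice 4, 6 and 7 and at 393, 442 and 376 CPM in mice 14, 19 and 20. The sets overlapped, and the log2 fold change, written throughout as the high set minus the low set with its standard error, was 0.12 ± 0.12 (edgeR quasi-likelihood, adjusted p = 0.737). Pkd2, its channel partner, was at 0.57 ± 0.30 (adjusted p = 0.462), and its sets overlapped too. The tissue label was checked with 25 genes of hepatocyte identity and secretion, all of them tested, whose summed level was 65500 to 70833 CPM in the low set and 63748 to 68207 CPM in the high set. Alb (albumin) was between 8380 and 11390 CPM in the 6 livers. Of the libraries, mice 19 and 14 stood apart in a list of pancreas, adipose, muscle and mesothelium genes. All 21 members had a read in mouse 19, and their sum was 159 CPM, against 12.5 CPM in mouse 14 and 3.28 to 5.94 CPM in the other livers. Mouse 19 held pancreatic transcripts: Pnlip (pancreatic lipase) had 1500 reads in mouse 19 and 3 in mouse 7, and none in the other 4 livers. Mouse 14 had the most reads of the adipose genes Plin1 (127), Cfd (70) and Adipoq (28), where mouse 19 had 42, 22 and 3.

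Between the sets, 4 genes of 15722 tested differed at an adjusted p under 0.05, which is 0.0254% of those tested. Tsku and Brca2 were higher in the high set, and Serpina3c and Serpina3h were lower. Before adjustment 2067 genes had a p under 0.05, of which 1005 were higher and 1062 lower. The first principal component of the log2 CPM held 26.3% of the variance and separated the sets, with the low set between -33.3 and -26.3 and the high set between 26.0 and 32.1. The second component held 20.4% and ran within the low set, from 46.8 for mouse 4 to -38.0 for mouse 6. The root mean square difference of log2 CPM averaged 0.711 for pairs of mice from different sets, 0.684 within the low set and 0.646 within the high set. By other tests, DESeq2 called 424 genes (3 of the 4 among them) and limma-voom 0. The count of 4 was smaller without any 1 mouse: it was 0 without mouse 19, 0 without mouse 20, 1 without mouse 4 or mouse 14, 2 without mouse 6 and 3 without mouse 7. With 3 mice a set, many differences in which the sets do not overlap are not called. Every mouse of the high set lay above every mouse of the low set for 9.2% of tested genes, and below for 10.2%, and the counts for lists of genes below are read against these shares. When all 19 libraries entered the fit and shared its estimate of the spread, the same contrast called 40 genes (18 higher and 22 lower, 0.224% of 17889 tested).

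The gene with the largest log2 fold change of the 15722 tested, Serpina3c, lies in a cluster of serpins on chromosome 12 (GRCm38). Serpina3c (chr12:104146907-104153929) was at 93.5, 334 and 136 CPM in mice 4, 6 and 7 and at 0.209, 0.0557 and 0.252 CPM in mice 14, 19 and 20. The low set held 16610 reads of the gene in 87.7 M counts, and the high set 19 reads in 109 M, so the transcript was plainly present in 1 set and near the limit of detection in the other. The log2 fold change was -10.04 ± 0.77 (adjusted p = 0.0134). Without 1 mouse of the low set Serpina3c was still called, and without mouse 14, 19 or 20 it was not (adjusted p of 0.0612, 0.129 and 0.179). Serpina3h (chr12:104247896-104254405), which RefSeq annotates as a transcribed pseudogene, had 269 reads in the low set and 8 in the high set, with 2.89, 4.32 and 1.78 CPM against 0.149, 0.0557 and 0.0252 CPM. Its log2 fold change was -5.30 ± 0.60 (adjusted p = 0.0335), called without mouse 7 and not without any other (adjusted p between 0.0508 and 0.201). Serpina3m, a neighbour of the same subfamily, was at 240, 650 and 307 CPM against 82.7, 105 and 80.1 CPM, and the sets did not overlap (log2 fold change -2.16 ± 0.35, adjusted p = 0.12). These genes are close paralogs, and no source used here says how reads matching several of them were counted, so reads could have been split among them. Within 1 Mb of Serpina3c, 34 genes were tested. Of these, 5 had the high set wholly above and 8 had it wholly below, and the differences ran in both directions within the cluster. Serpina1d was higher in every mouse of the high set (322, 146 and 425 CPM against 676, 772 and 582 CPM; log2 fold change 1.19 ± 0.33, adjusted p = 0.231). Serpina11 was lower in every mouse of that set (-1.19 ± 0.29, adjusted p = 0.194). Serpina1e varied widely within the sets, with 39.3, 39.5 and 326 CPM against 972, 655 and 243 CPM (2.21 ± 0.87, adjusted p = 0.334). Serpina3k overlapped between the sets at 1598 to 3350 CPM and 1733 to 1957 CPM.

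**Figure D1:**
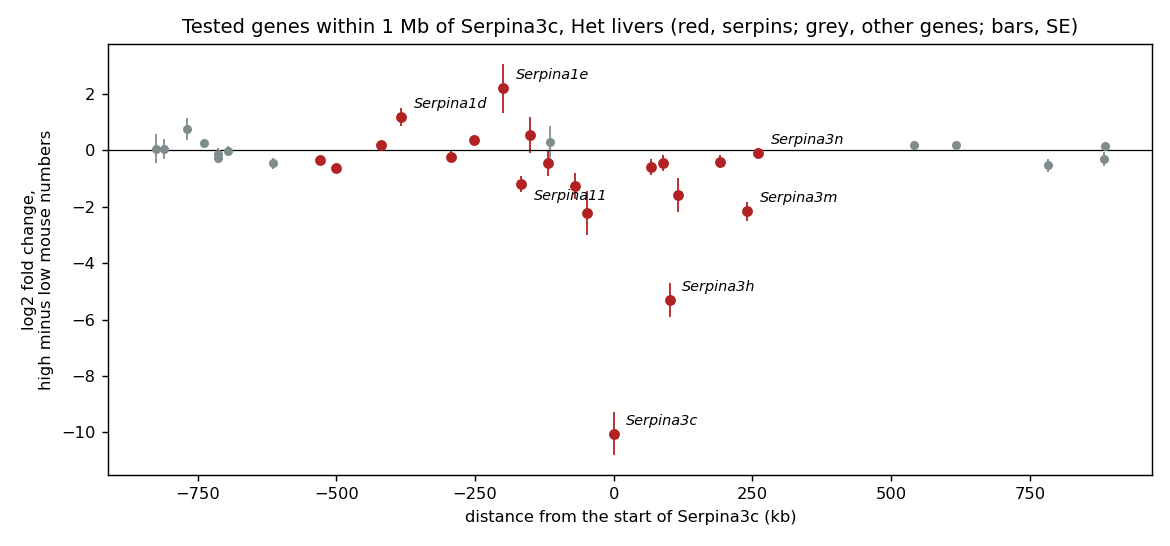
Log2 fold change (high minus low mouse numbers, y axis) of the 34 tested genes within 1 Mb of Serpina3c against the distance of their starts from its start in kb (x axis), Het livers, 3 against 3. Red points are serpins, grey points other genes and bars standard errors. Serpina3c at -10.04 and Serpina3h at -5.30 lie far below their neighbours, and Serpina3n lies near 0.

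Serpina3n, an acute phase serpin next to Serpina3m, was alike in both sets by value, with 255, 292 and 241 CPM against 207, 310 and 227 CPM (-0.08 ± 0.15, adjusted p = 0.863). The 250 bases before the start that the RefSeq promoter table uses for Serpina3c (GRCm38.p6, chr12:104153873-104154122, minus strand) and for Serpina3n (chr12:104406458-104406707, plus strand) are shown because these paralogs behaved differently between the sets while their promoters are nearly the same. With 1 sequence shifted by 3 bases, 229 of 247 aligned bases are identical (92.7%). Capitals mark the 18 aligned bases that differ.
Serpina3c: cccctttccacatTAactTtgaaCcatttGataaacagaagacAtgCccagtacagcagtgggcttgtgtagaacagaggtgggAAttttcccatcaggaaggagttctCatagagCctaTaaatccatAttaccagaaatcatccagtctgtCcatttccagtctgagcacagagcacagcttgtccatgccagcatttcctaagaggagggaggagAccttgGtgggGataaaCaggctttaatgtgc
Serpina3n: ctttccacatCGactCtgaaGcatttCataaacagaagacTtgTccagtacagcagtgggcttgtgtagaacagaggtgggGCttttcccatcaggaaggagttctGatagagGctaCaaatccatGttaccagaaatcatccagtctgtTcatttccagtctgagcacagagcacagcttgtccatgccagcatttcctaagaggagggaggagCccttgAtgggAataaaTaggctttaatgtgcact
The windows reach 57 and 62 bases into the outer RefSeq bounds of the genes. The letters are those of the reference strain and not of these mice.

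The on and off pattern of Serpina3c was not tied to the Het genotype. In the other genotypes, WT mice 1, 2, 3 and 9 and Homo mice 8 and 10 held between 120 and 174 CPM, and WT mice 11, 12 and 13 and Homo mice 15 to 18 held between 0.0535 and 0.145 CPM. Over all 19 livers the gene was thus present in every mouse numbered up to 10 and near 0 in every mouse from 11 on. Serpina3h and Serpina3m stepped between the same mice: for Serpina3m, WT mice 1, 2, 3 and 9 held 297 to 342 CPM, while 89.8 to 130 CPM were found in mice 11, 12 and 13. Because the WT high set holds mouse 9, its own contrast was smaller, with a log2 fold change of -1.85 ± 0.95 for Serpina3c (adjusted p = 0.308, fit of 19 libraries) against -10.68 ± 1.99 in Homo (adjusted p = 0.0621). Nnt, the mitochondrial transhydrogenase gene of which the C57BL/6J strain carries a deleted form, had a similar step between other mice. It was at 14.8, 16.7 and 13.9 CPM in the low Het set and at 25.7, 25.5 and 30.9 CPM in the high set (0.85 ± 0.13, adjusted p = 0.111). WT and Homo mice numbered up to 11 held 10.3 to 14.1 CPM, and those from 12 on held 28.3 to 44.4 CPM. Within 1 Mb of Nnt (chr13:119335527-119409257), 10 genes were tested, of which 4 had the high set wholly above and 1 wholly below. One of them, Ccl28 (a mucosal chemokine), was at 0, 0 and 0.309 CPM against 1.28, 1.17 and 2.30 CPM (4.08 ± 0.86, adjusted p = 0.149). Its reads in the low set came from mouse 7, and the fitted value was 8.78 without that mouse, so it gives no bound. Ccl28, Serpina3n and the other serpins outside the rule for named genes were named for their position after their values were seen.

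**Figure D2:**
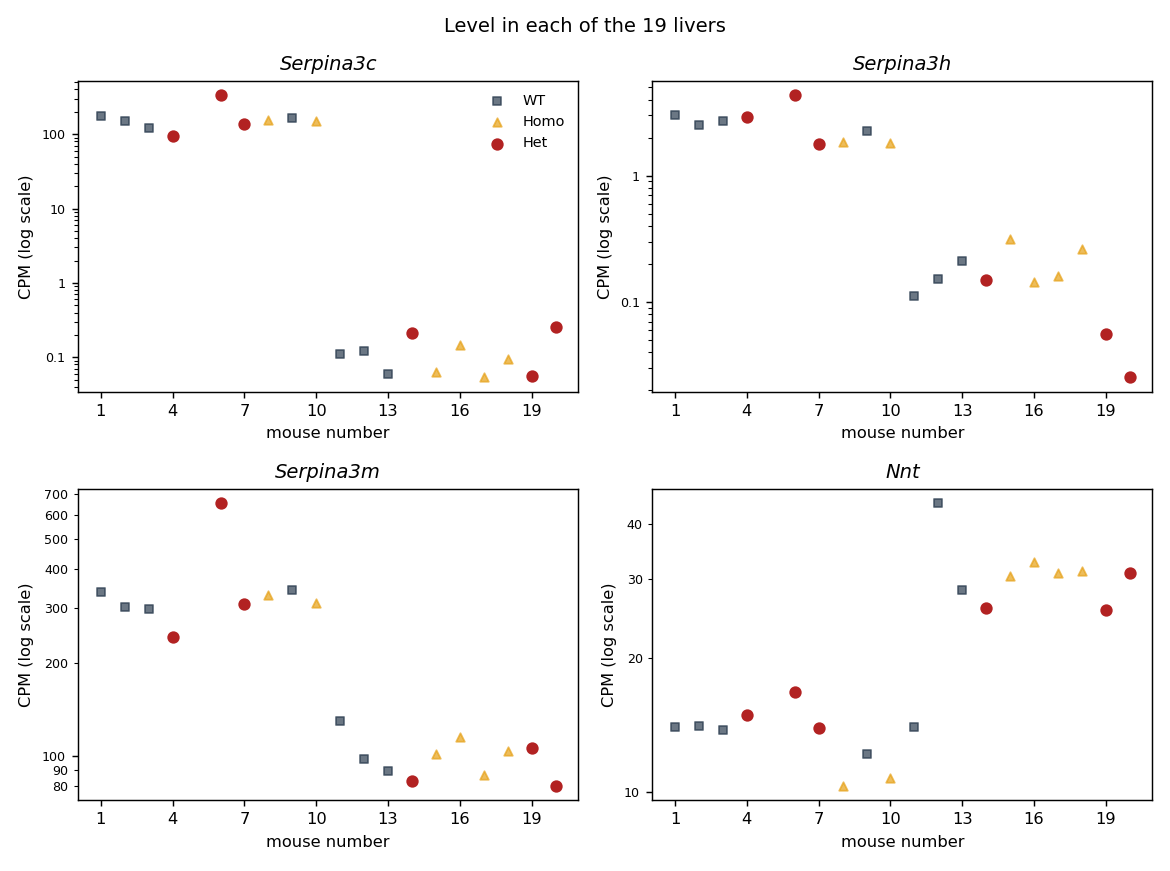
Levels of Serpina3c, Serpina3h, Serpina3m and Nnt in CPM (log scale, y axis) in each of the 19 livers by mouse number (x axis), with red circles for Het, dark squares for WT and yellow triangles for Homo. Serpina3c lies above 90 CPM in mice up to number 10 and below 1 CPM from number 11 on, whatever the genotype, and Nnt steps up between mice 11 and 12.

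The genes called as higher were Tsku and Brca2. Tsku (chr7:98350668-98361390) encodes tsukushi, a protein that the liver secretes. It was at 151, 167 and 156 CPM in mice 4, 6 and 7 and at 367, 533 and 558 CPM in mice 14, 19 and 20. Every liver of the high set was thus above every liver of the low set by more than the spread within either, with a log2 fold change of 1.62 ± 0.16 (adjusted p = 0.0335). Brca2 (chr5:150522297-150570147), a DNA repair gene, was at 44.5, 42.5 and 45.0 CPM against 72.1, 76.6 and 74.0 CPM (0.76 ± 0.08, adjusted p = 0.0498). Both calls were lost in most fits without 1 mouse, each of which also has fewer libraries. The log2 fold changes in these fits stayed between 0.73 and 0.78 for Brca2 and between 1.52 and 1.79 for Tsku. Brca2 was not called without any 1 of the 6 mice (adjusted p between 0.0975 and 0.215). Tsku was called without mouse 14 (adjusted p = 0.00318) and not without any other (0.0923 to 0.179). In WT, Brca2 rose in the high set by 0.64 ± 0.13 (adjusted p = 0.00734, fit of 19 libraries), and Tsku was at 0.60 ± 0.31 (adjusted p = 0.315).

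Behind these calls, the 10 named genes with the smallest p in each direction gave the following values, none of them called apart from the 4 above. Among those with higher values in the high set, G6pc, the glucose-6-phosphatase that ends gluconeogenesis, was at 44.4, 42.9 and 68.3 CPM against 148, 168 and 137 CPM (1.54 ± 0.18, adjusted p = 0.0818). Zfp612, a zinc finger gene, was at 45.0, 44.7 and 52.6 CPM against 87.9, 114 and 92.7 CPM (1.05 ± 0.12, adjusted p = 0.0818). Srsf5, a splicing factor, was at 324, 316 and 315 CPM against 467, 447 and 469 CPM (0.54 ± 0.07, adjusted p = 0.0962). Gpcpd1, Ctcflos and Trp53inp1 were at 0.85, 1.09 and 0.84 on the log2 scale. On the lower side, Kyat3, a kynurenine aminotransferase, was at 188, 222 and 199 CPM against 120, 108 and 127 CPM (-0.78 ± 0.10, adjusted p = 0.0944). Onecut1, a hepatocyte transcription factor also known as HNF6, was at 76.5, 74.0 and 56.3 CPM against 32.2, 34.6 and 23.2 CPM (-1.20 ± 0.18, adjusted p = 0.111). Arrdc3, an arrestin domain gene, was at -1.18 ± 0.17, and Bdh1, an enzyme of ketone body metabolism, at -0.63 ± 0.09. The remaining genes, Pqlc2 (now Slc66a1), Zbtb7b, Slc25a30 and Erc2, lay between -0.72 and -0.52. The sets did not overlap for any gene of this paragraph. In the fit of 19 libraries G6pc, Zfp612, Srsf5, Kyat3, Zbtb7b, Erc2 and Trp53inp1 were among the 40 genes called.

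Chaperone genes of the ER lay lower in the high set. Of 22 genes of the unfolded protein response, 14 had the high set wholly below the low set and 0 wholly above, beside 10.2% and 9.2% of all tested genes. Their median log2 fold change was -0.41, beside 0.00223 for all genes, and no member was called in the 6 libraries. The median was -0.27 without mouse 4 and between -0.46 and -0.36 without any other single mouse. Hspa5, which encodes BiP, the main ER chaperone, was at 370, 303 and 245 CPM against 161, 179 and 166 CPM (-0.86 ± 0.14, adjusted p = 0.126). Sec61b, a subunit of the ER translocon, was at 11.9, 10.6 and 11.2 CPM against 7.13, 5.99 and 6.74 CPM (-0.77 ± 0.13, adjusted p = 0.133). Ero1lb (now Ero1b), an oxidase of protein folding, was at 100.4, 87.4 and 73.9 CPM against 55.3, 57.6 and 54.0 CPM (-0.65 ± 0.12, adjusted p = 0.133). In the fit of 19 libraries these 3 genes were called, with adjusted p of 0.0405, 0.0453 and 0.0405. The WT sets, which share no mouse with the Het sets, had a median of -0.64 for the list, with 15 of the 22 genes called as lower in the high set (794 genes or 4.44% of all tested were called in WT). For 3 of the 22 genes the Het set difference departed from that of WT (edgeR, adjusted p under 0.05), beside 0.352% of all genes tested. The Homo sets had a median of -0.02, and of all genes 2 were called there (0.0112%).

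The promoters of the 3 genes are shown with the ER stress response element, a site through which the unfolded protein response acts in mammals. The element is CCAAT and CCACG with N for any base in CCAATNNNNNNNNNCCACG. It was searched on both strands in the 250 bases before the start in the RefSeq promoter table (GRCm38.p6), and the fixed letters of a match are in capitals.
Hspa5: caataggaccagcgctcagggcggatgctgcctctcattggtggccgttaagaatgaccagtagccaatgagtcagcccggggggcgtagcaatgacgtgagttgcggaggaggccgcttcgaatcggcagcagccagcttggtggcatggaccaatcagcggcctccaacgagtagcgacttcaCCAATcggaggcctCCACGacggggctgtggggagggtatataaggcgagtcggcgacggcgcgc
Ero1lb: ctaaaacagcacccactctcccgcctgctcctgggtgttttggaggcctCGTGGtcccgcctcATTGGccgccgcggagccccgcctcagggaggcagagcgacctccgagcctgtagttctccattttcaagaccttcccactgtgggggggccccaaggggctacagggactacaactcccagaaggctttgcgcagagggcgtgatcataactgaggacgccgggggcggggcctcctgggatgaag
Sec61b: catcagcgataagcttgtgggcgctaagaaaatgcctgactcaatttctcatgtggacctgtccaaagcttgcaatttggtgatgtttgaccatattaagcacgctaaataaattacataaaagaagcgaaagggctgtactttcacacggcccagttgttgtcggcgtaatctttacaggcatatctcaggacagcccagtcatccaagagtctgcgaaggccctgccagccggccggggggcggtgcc
These windows are chr2:34771840-34772089, chr13:12565633-12565882 and chr4:47474411-47474660, each on the plus strand. The Ero1lb window reaches 65 bases into the outer bounds of its gene. The Ero1lb match lies on the opposite strand, where its letters read in reverse complement. Of 20 tested list members with a promoter in the table, 9 held the element, against 35 of 27025 genes in all (0.13%). Its separate parts are common, with CCAAT in 37.5% and CCACG in 31% of all promoters. The joined element was searched after the values were seen. The list was chosen as genes of this response, so its share of matches does not bear on the difference between the sets.

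Heat shock proteins and their cochaperones, mostly cytosolic and including mitochondrial Hspd1 and Hspe1, lay in the same direction. Of 18 tested, 13 had the high set wholly below and 0 wholly above, with a median of -0.38 and no call. Hsph1, a large HSP70 cochaperone, was at 118, 103 and 85.3 CPM against 45.9, 36.8 and 61.3 CPM (-1.09 ± 0.19, adjusted p = 0.133). Hspa8, the constitutive HSP70, was at 194, 218 and 181 CPM against 135, 138 and 152 CPM (-0.48 ± 0.10, adjusted p = 0.154). Dnajb1, its J-domain partner, was at -0.65 ± 0.13 (adjusted p = 0.153). Hspb1, a small heat shock protein, was at 5.41, 4.75 and 3.01 CPM against 2.24, 1.89 and 2.47 CPM (-1.01 ± 0.26, adjusted p = 0.217). Hsph1 and Hspb1 were called in the fit of 19 libraries (adjusted p of 0.014 and 0.0453), and in WT, where 8 of the 18 were called as lower in the high set, they fell by 0.94 and 0.78 (log2 fold changes -0.94 ± 0.15 and -0.78 ± 0.18). In Homo they were at 0.04 and 0.18. Their promoters were searched for the heat shock core GAANNTTC, which 7.73% of all promoters hold on either strand.
Hsph1: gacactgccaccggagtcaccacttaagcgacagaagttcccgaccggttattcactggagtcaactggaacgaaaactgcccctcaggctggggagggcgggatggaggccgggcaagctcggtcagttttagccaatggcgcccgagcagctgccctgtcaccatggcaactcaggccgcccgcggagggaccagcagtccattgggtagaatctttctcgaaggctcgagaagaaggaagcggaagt
Hspb1: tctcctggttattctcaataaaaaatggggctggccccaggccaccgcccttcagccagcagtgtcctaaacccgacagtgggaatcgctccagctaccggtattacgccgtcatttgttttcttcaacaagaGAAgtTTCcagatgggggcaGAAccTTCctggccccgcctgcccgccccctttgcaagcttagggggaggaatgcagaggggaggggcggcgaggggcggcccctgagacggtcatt
Hspb1 (chr5:135887669-135887918, plus strand) held 2 matches of this core, in capitals. Hsph1 (chr5:149636337-149636586, minus strand) held no match of it in this window, of which 162 bases lie within the outer bounds of the gene. Other forms of the heat shock site were not searched. The lack of a match therefore does not show that the Hsph1 window lacks a heat shock site.

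**Figure D3:**
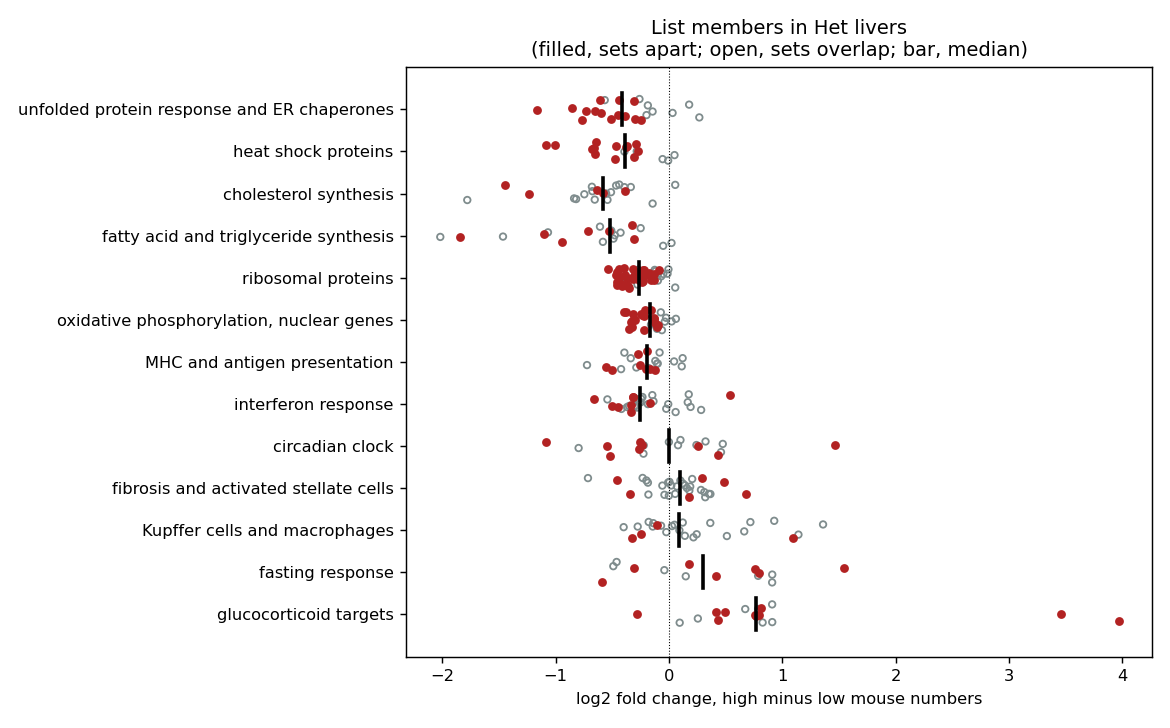
Log2 fold change (high minus low mouse numbers, x axis) of every tested member of 13 gene lists (y axis) in Het livers. Filled points are genes whose sets do not overlap, open points genes whose sets overlap, and black bars list medians. Medians run from -0.58 for cholesterol synthesis to 0.77 for glucocorticoid targets.

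Lipid synthesis genes lay lower in the high set, with mouse 4 far above the rest for some of them. Values under 0 were seen for 20 of 21 cholesterol synthesis genes (median -0.58), and of 20 genes of fatty acid and triglyceride synthesis 19 did, with a median of -0.52. Sets that did not overlap were fewer, 5 and 7 with the high set below and 0 above, and no gene was called. Without mouse 4 the medians were -0.24 and -0.29, and without mouse 14 that of fatty acid synthesis was -0.79. Fasn (fatty acid synthase) was at 1290, 319 and 325 CPM in mice 4, 6 and 7 and at 250.4, 136 and 153 CPM in mice 14, 19 and 20 (-1.84 ± 0.55, adjusted p = 0.248), so mouse 4 stood far above the other 5 livers. Insig1, which holds SREBP in the ER, was at 89.8, 42.6 and 50.5 CPM against 29.3, 27.1 and 21.4 CPM (-1.24 ± 0.27, adjusted p = 0.179). Mlxipl, the carbohydrate-responsive factor ChREBP, was at -0.31 ± 0.08. The 14 lipid droplet and uptake genes had a median of 0.20, which was 0.11 without mouse 14 and 0.32 without mouse 4: Plin4 was at 29.0, 28.5 and 48.1 CPM against 123, 57.1 and 60.2 CPM (1.19 ± 0.33, adjusted p = 0.231, and 0.74 without mouse 14, the liver with adipose transcripts, whose part was not tested), and Plin5 at 0.54 ± 0.13 (adjusted p = 0.194). The 26 genes of fatty acid oxidation and PPARA targets had a median of 0.05.

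Glucocorticoid targets lay higher in the high set. Of 17 tested, 16 lay above 0, 9 had the high set wholly above and 1 wholly below, and the median was 0.77, with no call. Mt1 and Mt2, the metallothioneins, which bind zinc and copper, had the largest log2 fold changes of the list. Mt1 was at 14.0, 14.6 and 30.5 CPM against 95.0, 368 and 180 CPM (3.46 ± 0.53, adjusted p = 0.112), and Mt2 at 1.54, 1.85 and 5.37 CPM against 19.6, 79.3 and 33.5 CPM (3.97 ± 0.64, adjusted p = 0.12). Within each set the mice kept 1 order for both genes, and mouse 19, the liver with pancreatic transcripts, was the highest of the 6. The part of those transcripts was not tested; without mouse 19 the median of the list was 0.64. Without mouse 6 it was 0.48. Both were called in the fit of 19 libraries (adjusted p of 0.0254 and 0.0389). Metals act on these genes through the metal response element, whose core TGCACNC is in 11.8% of all promoters. This core was searched after the values were seen. It is in capitals in the promoters that follow, shown because these neighbours differed together.
Mt1: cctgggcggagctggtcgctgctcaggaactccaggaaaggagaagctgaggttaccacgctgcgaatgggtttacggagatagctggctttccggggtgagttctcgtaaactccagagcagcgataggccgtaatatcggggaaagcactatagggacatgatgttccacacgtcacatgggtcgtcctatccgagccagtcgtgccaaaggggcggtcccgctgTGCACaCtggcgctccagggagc
Mt2: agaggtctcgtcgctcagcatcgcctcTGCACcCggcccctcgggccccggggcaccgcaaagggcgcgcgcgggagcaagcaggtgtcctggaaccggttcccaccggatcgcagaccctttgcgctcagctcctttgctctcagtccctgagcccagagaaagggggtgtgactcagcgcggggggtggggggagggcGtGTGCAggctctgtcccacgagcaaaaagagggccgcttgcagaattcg
The windows are chr8:94178839-94179088 and chr8:94172368-94172617, plus strand, with 1 match in Mt1 and 2 in Mt2. The Mt1 window lies for 206 bases within the outer bounds of its gene. Tsc22d3, which encodes GILZ, a glucocorticoid-induced protein, was at 77.5, 81.3 and 92.3 CPM against 125, 167 and 149 CPM (0.81 ± 0.12, adjusted p = 0.111). Of the 14 fasting response genes, with a median of 0.30 (0.19 without mouse 6 and 0.46 without mouse 4), 5 had the high set wholly above and 2 wholly below. The lists share members: Tat, Igfbp1 and Cdkn1a are glucocorticoid targets too, and G6pc and Pck1 are also on the glucose and glycogen list. Pck1 (0.76 ± 0.15), an enzyme of gluconeogenesis, and Tat (0.80 ± 0.17), which encodes tyrosine aminotransferase, were higher in every mouse of the high set. So was Ppp1r3b (1.33 ± 0.22), a glycogen-targeting subunit of protein phosphatase 1 from the glucose and glycogen list. Adjusted p for these genes lay between 0.126 and 0.171. The 23 genes of glucose and glycogen metabolism as a whole had a median of -0.19, with 3 sets apart above and 10 below.

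Clock genes differed in both directions, and their median was -0.00110 over 19 tested genes. Arntl, which encodes the clock activator BMAL1, was at 8.02, 7.46 and 10.2 CPM against 16.6, 26.3 and 27.4 CPM (1.46 ± 0.22, adjusted p = 0.111). Nr1d1, which encodes its repressor REV-ERB alpha, was at 57.5, 37.2 and 74.5 CPM against 35.9, 20.2 and 23.4 CPM (-1.09 ± 0.28, adjusted p = 0.217). Dbp, an output gene of the clock, was at 182, 187 and 198 CPM against 167, 107 and 114 CPM (-0.55 ± 0.16, adjusted p = 0.245). In all 3 genes the sets did not overlap, and mouse 14 lay nearest to the low set. The labels do not give the time of collection, and its part in these values was not tested.

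The WT sets differed the opposite way in Arntl, Dbp, Tsc22d3 and Tat, though not in Mt1 (2.15 ± 0.52 in WT, adjusted p = 0.0253). Their difference was compared with that of Het in 1 fit of 19 libraries, and 63 genes passed (31 higher and 32 lower, 0.352% of those tested). The WT sets are split between other mouse numbers than the Het sets. Genotype and mouse number therefore cannot be told apart in this comparison. The 3 WT mice of the low set held 20.5 to 65.9 CPM of Arntl and those of the high set 6.67 to 13.9 CPM, a fall of 1.96 (log2 fold change -1.96 ± 0.32, adjusted p = 0.00258), and the Het difference exceeded it by 3.42 ± 0.50 (adjusted p = 0.00611). For Dbp the low WT set held 67.8 to 112 CPM and the high set 184 to 208 CPM (1.23 ± 0.16, adjusted p = 0.000343), with a difference between the genotypes of -1.78 ± 0.23 (adjusted p = 0.00196). Of the 19 clock genes 6 passed, among them Per3 (-1.62 ± 0.25, adjusted p = 0.00648) and Bhlhe41 (-1.69 ± 0.35, adjusted p = 0.0403). Of the 17 glucocorticoid targets 5 passed, all with the Het set difference above that of WT. They were Tsc22d3 (1.98 ± 0.39), Tat (2.15 ± 0.38), Igfbp1 (3.12 ± 0.55), Cdkn1a (3.12 ± 0.61) and Zbtb16 (3.38 ± 0.67), with adjusted p between 0.0167 and 0.0338. G6pc also passed (1.92 ± 0.34, adjusted p = 0.0195). Per3, Bhlhe41, Igfbp1, Cdkn1a and Zbtb16 were named after their values were seen. Nr1d1 did not pass, and was lower in the high set of each genotype by value (-1.16 ± 0.24 in WT and -1.39 ± 0.28 in Homo). The count of 63 was 24 without Het mouse 6, 25 without Het mouse 19, 25 without WT mouse 1, 30 without Het mouse 20, 31 without WT mouse 13 and 38 without WT mouse 2. Between the Het and Homo differences 0 genes passed in edgeR (0% of those tested, with 1453 at an unadjusted p under 0.05), while DESeq2 called 46.

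**Figure D4:**
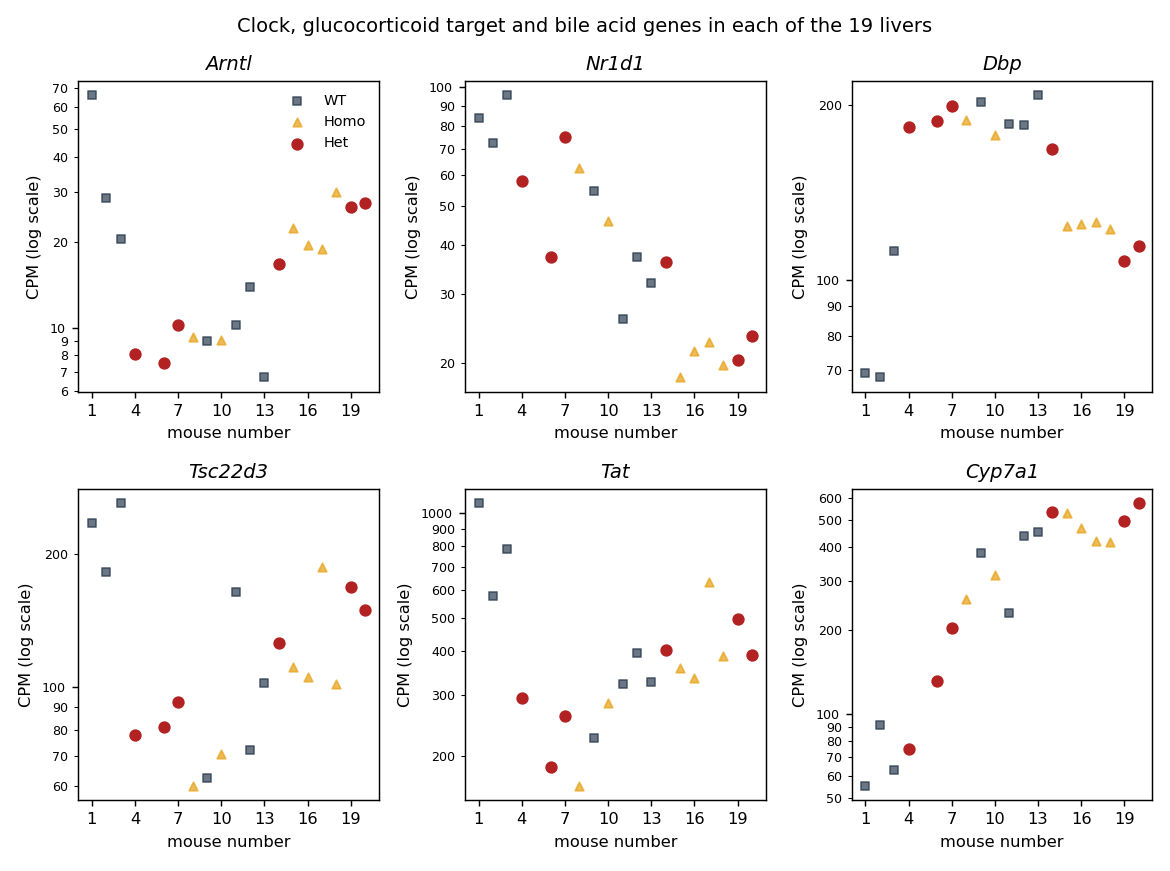
Levels of Arntl, Nr1d1, Dbp, Tsc22d3, Tat and Cyp7a1 in CPM (log scale, y axis) in each of the 19 livers by mouse number (x axis), with red circles for Het, dark squares for WT and yellow triangles for Homo. WT mice 1 to 3 lie high for Arntl, Tsc22d3 and Tat and low for Dbp, and the Het sets differ in the opposite direction.

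Cyp7a1, the rate-limiting enzyme of bile acid synthesis, differed in the same direction in Het and WT. It was at 74.4, 130 and 204 CPM in mice 4, 6 and 7 and at 529, 492 and 572 CPM in mice 14, 19 and 20 (1.96 ± 0.31, adjusted p = 0.12), and it was called in the fit of 19 libraries (adjusted p = 0.014). In WT it rose from 55.2 to 91.3 CPM in the low set to 230 to 454 CPM in the high set (2.43 ± 0.29, adjusted p = 0.000181), and in Homo it was at 0.67 ± 0.30 (adjusted p = 0.484). The 20 tested genes of bile acid synthesis and transport had a median of 0.01, with 3 sets apart above and 1 below. Abcb11, the bile salt export pump, was the 1 below (-0.41 ± 0.11, adjusted p = 0.233). Por, the electron donor of cytochrome P450 enzymes, was at 0.64 ± 0.14 (adjusted p = 0.172), and the 31 tested P450 genes had a median of 0.02.

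Ribosomal protein genes had small differences that nearly all pointed the same way. Of 53 tested, 52 lay below 0 and 39 had the high set wholly below and 0 above, with a median of -0.26 and no call. Rpl37a was at 57.4, 56.3 and 54.1 CPM against 41.6, 39.3 and 41.0 CPM (-0.46 ± 0.08, adjusted p = 0.133). Rps21 and Rps23 were at -0.47 ± 0.09 and -0.44 ± 0.09, and all 3 were called in the fit of 19 libraries. Of 30 nuclear genes of oxidative phosphorylation, 28 lay below 0 and 20 had the high set wholly below, with a median of -0.17. Uqcrq, Cox7c and Cox4i1, subunits of respiratory complexes III and IV, were at -0.31, -0.40 and -0.30. Transcript length moved with the differences between the sets. Genes with a known length and an average log2 CPM above 1 were put into 5 bins of 2282 by their longest GENCODE transcript. The shortest bin (median 1468 bases) had a median log2 fold change of -0.09, and 19.8% of its genes had the high set wholly below. In the longest bin (median 6985 bases) these values were 0.05 and 7.54%. With offsets for transcript length and GC content, an alternative chosen after seeing the data, the ribosomal median was -0.18 and that of oxidative phosphorylation -0.16, while that of the unfolded protein response was -0.40. With the same offsets 1 gene was called, Serpina3c.

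**Figure D5:**
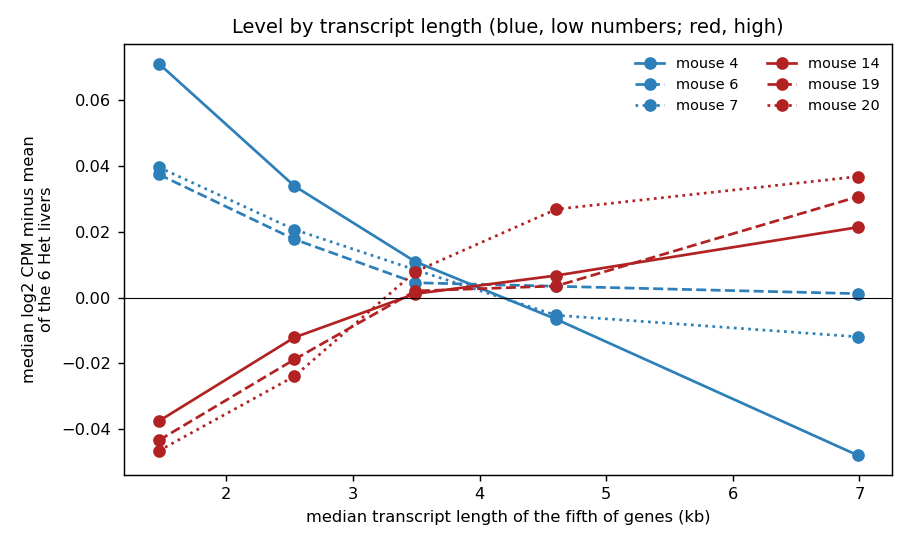
Median log2 CPM of each Het liver minus the mean of the 6 livers (y axis) for 5 bins of genes, at the median length of each bin in kb (x axis). The genes are those above the average level named in the text, ordered by transcript length. Blue lines are mice 4, 6 and 7 and red lines mice 14, 19 and 20. The low set lies above and the high set below 0 for the shortest bin.

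Lists of antigen presentation, interferon response and T and NK cells lay lower in the high set by value. Other immune lists and stromal lists had medians closer to 0. The medians were 0.06 for dendritic cells, -0.10 for B and plasma cells and -0.10 for neutrophils. In that order, 7 of 9, 7 of 16 and 3 of 12 markers were tested. Without 1 mouse or another these medians ran from -0.07 to 0.13, -0.16 to 0.15 and -0.39 to 0.13, so no direction is given for them. In bulk tissue, fewer cells of a type and less RNA per cell cannot be told apart. Of 21 genes of antigen presentation 18 lay below 0, 8 with the high set wholly below and 0 above (median -0.20), among them Nlrc5, the activator of MHC class I genes (-0.51 ± 0.11, adjusted p = 0.179), Tapbp (-0.27 ± 0.09) and H2-Q10 (-0.26 ± 0.09). Of 31 interferon response genes 8 had the high set wholly below and 1 above (median -0.26, and -0.14 without mouse 19). Ifit2 was at -0.66 ± 0.17. For T and NK cells 9 of 21 markers were tested. The 19 markers with a row in the counts had a summed level of 10.6 to 10.9 CPM in the low set and 6.94 to 7.76 CPM in the high set. Pdcd1 had no read in any of the 6 livers. The median of the 9 tested genes was -0.31, and it was -0.14 without mouse 4 and -0.10 without mouse 7. On counts thinned to the smallest library total the median of the list was -0.04. Lck, a kinase of T cells, was at 1.23, 1.19 and 1.81 CPM against 0.388, 0.585 and 0.631 CPM (-1.36 ± 0.35, adjusted p = 0.217), and Il2rb at -0.67 ± 0.24. The 25 markers of Kupffer cells and macrophages had a median of 0.09, and the 31 genes of fibrosis and activated stellate cells 0.10, with summed levels of 433 to 464 against 455 to 518 CPM and 560 to 577 against 560 to 642 CPM. Bile duct markers had a median of 0.27 over 14 tested genes, and the sums of all 17 listed markers were 202 to 216 against 215 to 268 CPM. That median was 0.085 without mouse 19, 0.13 without mouse 6 or mouse 20 and 0.44 without mouse 14. The part of other cell types in the differences above was not tested.

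Hepatocyte regulators gave mixed values. Of the 25 hepatocyte genes 5 had the high set wholly above and 5 wholly below, with a median of -0.04. Cebpa, a factor of hepatocyte identity, was at 577, 638 and 573 CPM against 480.3, 428 and 460 CPM (-0.39 ± 0.08, adjusted p = 0.171). It differed from its WT difference of 0.31 by -0.69 ± 0.11 (adjusted p = 0.0084). Bcl6 and Cish, a repressor and a target of growth hormone signalling, were at 1.12 ± 0.40 and -1.80 ± 0.51, and the sets overlapped for Cish. Of 16 tested p53 targets 12 lay above 0, with 3 sets apart above and 1 below. Their median was 0.21, and it was 0.013 without mouse 20. Among those above 0 were Trp53inp1 at 31.8, 23.4 and 27.1 CPM against 46.0, 52.3 and 49.0 CPM and Mdm2 at 0.35 ± 0.09. For both, the Het set difference departed from that of WT, by 1.78 ± 0.21 (adjusted p = 0.00123) and 0.55 ± 0.11 (adjusted p = 0.037). Neat1, a nuclear long noncoding RNA, was at 1821, 1825 and 1301 CPM against 904, 889 and 1056 CPM (-0.80 ± 0.14, adjusted p = 0.133).

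In the lists that follow no member was called in the 6 libraries. Zonation genes were split, with a median of 0.09 for 18 pericentral genes (Cyp2e1 0.42 ± 0.18, Cyp2a5 0.46, Tbx3 0.63) and 0.00338 for 16 periportal genes (Asl 0.39 ± 0.13, Ctsc -0.38). Of the 33 genes of amino acid breakdown and the urea cycle, Mat1a, which makes S-adenosylmethionine, was at 0.36 ± 0.08 and Amdhd1, of histidine breakdown, at -0.37 ± 0.10. Nr1i3, which encodes the xenobiotic receptor CAR, was at 148, 172 and 233 CPM against 392, 269 and 317 CPM (0.82 ± 0.19, adjusted p = 0.187), and Apoc3 at -0.31 ± 0.08. Among targets of xenobiotics and oxidants, Cyp3a13 was at 0.74 ± 0.18, Cyp1a1 at -1.90 ± 0.56, Gstt2 at -0.79 ± 0.28, Ugt2b35 at 0.34, Sult1d1 at 0.42, Osgin1 at -0.69, Ugdh at -0.42 and Gclc at -0.28. Cpt1a, the gate of mitochondrial fatty acid oxidation, was at 0.18 ± 0.08, Acot1 at 0.96, Cyp4a31 at -1.28, Mogat1 at 0.95, Stard4 at -0.63 and Slco1a4 at 0.51.

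Stress and growth lists were as mixed. Ddit4, an inhibitor of mTORC1, was at 1.54, 1.58 and 2.43 CPM against 4.63, 5.93 and 4.19 CPM (1.42 ± 0.26, adjusted p = 0.133), while the ATF4 and hypoxia lists that hold it had medians of -0.04 and -0.06. Atf5 was at -0.54, Cebpb at 0.36, P4ha1 at -0.64 and Egln1 at 0.27. Of the immediate early genes, Dusp1 was at 0.77 ± 0.20, Socs3 at -0.68 and Junb at -0.49. Of YAP targets and p53 targets, Fgf1 was at 0.40, Amotl2 at 0.39, Birc3 at -0.36 and Perp at -0.29. Smad7, Steap3 and Fth1, of iron handling, were at 0.55, 0.36 and -0.24. Of 27 tested cell cycle genes, 12 lay above 0, and Ccne1, Cdk1 and Kif11 were at -0.76, 0.90 and 0.80. Of the complement and coagulation factors, C3, C8g and F9 were at 0.16, -0.23 and 0.22. Noncoding and histone genes gave 0.24 for Rpph1, 0.33 for Snhg1, -0.31 for Hist1h2bc, -0.24 for Hist1h4h and 0.80 for Hist2h2be. The tumour marker list gave -0.30 for Golm1, 0.67 for Lcn2 and -0.88 for Ly6d.

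Markers of sex-biased expression and of blood cells are given because the labels give neither sex nor perfusion. Of the 15 male-biased genes 6 lay above 0 and 9 below, with a median of -0.06. That median was -0.31 without mouse 4 and 0.27 without mouse 6. Serpina1e was at 2.21, Slco1a1 at -0.41 and Elovl3 at -0.51. Of 16 female-biased genes 5 were tested, 3 above 0 and 2 below, with Cyp17a1 at 0.98, Prlr at 0.48 and Cux2 at 0.11. The median of these 5 was 0.11, and it was -0.14 without mouse 20. The summed level of all 16 was 56.3 to 209 against 132 to 191 CPM. Of the stromal and myeloid markers, Dpt was at 0.68, Pdgfra at 0.49, Col4a1 at -0.34, Itgam at 1.09, Mmp12 at 1.14 and Clec4f at -0.33. Spp1 and Krt8, of bile duct epithelium, were at 0.49 and -0.36, and Clec4g, Lyve1 and Fcgr2b, of liver endothelium, at -0.21, -0.38 and 0.20. The dendritic cell markers Itgae, Itgax and Ccr7 were at 1.49, 1.23 and -1.33, and the B cell markers Cd79b and Cr2 at -1.07 and 0.12. Cd2 was at -0.57, Oasl1 at 0.54, Cxcl9 at -1.10, Cxcl14 at 0.69 and Cxcl16 at -0.28. Neutrophil genes gave -0.06 for Csf3r, -0.10 for S100a8 and -0.52 for S100a9. The 3 tested platelet genes had a median of -0.51 (-0.27 without mouse 4) and the 3 tested erythroid genes 0.24 (0.09 without mouse 4). Platelet genes gave -0.51 for Itga2b, -1.18 for Gp1bb and -0.02 for Ppbp, and erythroid genes -0.03 for Alas2, 0.72 for Hbb-bs and 0.24 for Hbb-bt. The signs of Serpina3n, Alb, Alas2, Cr2, Csf3r, Cux2, Elovl3, Ppbp and S100a8 turned without 1 mouse or another, so no direction is given for them. The 5 tested carry-over genes had a median of 0.58, which was 0.23 without mouse 19, 0.24 without mouse 6, 0.27 without mouse 7 and 0.35 without mouse 14. Of them, Cela1, Msln and Upk3b were at 2.27, 0.62 and 0.58, with mouse 19 highest for Cela1 at 15.4 CPM.

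Across all genes, the Het sets and those of the other genotypes, which share no mice with them, pointed the same way more often for genes whose Het sets did not overlap. Of these 3051 genes 70.6% had the same sign in WT and 65.0% in Homo, beside 59.5% and 56.6% of all 15722 genes. These are shares across genes, which are not independent replicates. Of the 40 genes called in Het in the fit of 19 libraries, 34 had the same sign in WT and 32 in Homo. In WT 18 of the 40 were called (45% of the Het calls and 2.27% of the 794 WT calls), 17 of them in the same direction, Trp53inp1 being the exception. In Homo 0 of the 40 were called.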

How the data were processed

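The authors deposited raw counts per gene symbol, 35976 rows and 1 column per mouse. The submitters' processing notes list GRCm38, featureCounts 1.6.4 and STAR 2.7.2b; no source used here states the strand setting, annotation or handling of multi-mapping reads. RNA was prepared with Trizol, a Qiagen RNeasy kit and a NuGen Ovation mouse kit, per the labels' protocols. In 27 rows a calendar date replaces the symbol; they hold 0.145 to 0.159% of counts, stayed in the totals and are not named.

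The counts were tested in R 4.3.3 with edgeR 4.0.16 (TMM, filterByExpr by set, glmQLFit and glmQLFTest, Benjamini-Hochberg adjustment, threshold 0.05) on the 6 Het libraries. Contrasts of the other genotypes and comparisons of their set differences with those of Het came from 1 fit of 19 libraries with 6 groups. CPM of WT and Homo mice are scaled over all 19 libraries. DESeq2 1.42.0 and limma 3.58.1 were used for alternatives. The code was tested on simulated data. No libraries of a set were merged, since each pair differed beyond sampling noise (smallest chi-square 27.9 for each degree of freedom). 

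Some genes that the rule selects are not reported here. Named genes (no Gm, Rik or LOC identifiers) were those called, the 10 with the smallest p in each direction, Pkd1 and Pkd2. Up to 3 per list with the smallest p were added. Alb, Hspb1, Hspd1, Hspe1, Pdcd1 and the pancreas and adipose genes given as reads were named outside this rule, and other exceptions are stated. Members, lists and tests were chosen with earlier results of these data known. Positions (14715 of 15722 tested genes had their own symbol in the annotation, 486 an earlier one) and promoters are RefSeq GRCm38.p6; transcript lengths matched 91.7% of tested genes. Mitochondrially encoded genes are not analysed here. Of the motifs planned, an E-box was searched and is not shown, and others were not run. A hormone receptor palindrome, which was not among those planned, was searched too and is not marked. It was in 0.44% of all promoters and in 2 of 15 glucocorticoid targets with a promoter, Mt1 among them.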

Additional observations from a re-analysis of the deposited data

Results flagged for a closer look

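Over 165 named genes and 3 groups of 4 to 6 mice, 44 values stood apart from the rest of their group by Dixon's test, where chance gives about 1 in 20 groups. No explanation was tested.

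Among the 6 Het livers, 10 values stood apart. Mouse 4 was the highest for Birc3 (46.71 CPM), Fasn (1290 CPM), Gstt2 (60.92 CPM) and Itga2b (1.32 CPM). Mouse 4 was the lowest for Hbb-bt (1.32 CPM). Mouse 6 was the highest for Serpina11 (132.2 CPM). Mouse 14 was the highest for Plin4 (123.1 CPM). Mouse 19 was the highest for Cela1 (15.43 CPM) and Cr2 (7.854 CPM). Mouse 20 was the highest for Cxcl14 (2.776 CPM).

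Among WT mice 9, 11, 12 and 13, 21 values stood apart. Mouse 9 was the highest for Arrdc3 (220.7 CPM), Oasl1 (14.02 CPM), Serpina3c (163.1 CPM), Serpina3h (2.244 CPM), Serpina3k (2770 CPM) and Serpina3m (342.2 CPM). Mouse 9 was the lowest for Gstt2 (23.69 CPM), Serpina1d (418.4 CPM) and Uqcrq (83.14 CPM). Mouse 11 was the highest for Cyp2e1 (1977 CPM), Onecut1 (77.3 CPM), Plin4 (84.88 CPM) and Snhg1 (5.47 CPM). Mouse 11 was the lowest for Abcb11 (294.2 CPM), C8g (111.3 CPM), Cebpa (482.6 CPM) and Tbx3 (39.65 CPM). Mouse 12 was the highest for Ctsc (72.82 CPM), Msln (2.821 CPM) and Neat1 (1204 CPM). Mouse 13 was the highest for Clec4f (21.15 CPM).

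Among Homo mice 15 to 18, 13 values stood apart. Mouse 15 was the lowest for Ifit2 (7.386 CPM). Mouse 16 was the highest for Alb (13670 CPM). Mouse 17 was the highest for Cdkn1a (9.366 CPM), Cela1 (24.46 CPM), Cxcl14 (2.997 CPM), Ddit4 (8.296 CPM), Hbb-bt (2.944 CPM), Hist1h4h (13.35 CPM), Rpl37a (50.87 CPM), Trp53inp1 (67.57 CPM) and Tsc22d3 (186 CPM). Mouse 17 was the lowest for Nlrc5 (54.62 CPM). Mouse 18 was the highest for G6pc (174.5 CPM).

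The Het set difference departed from the WT set difference, by the edgeR test of that difference (adjusted p under 0.05), in 13 named genes. On the log2 scale, Het minus WT, these were Arntl (3.42), Bhlhe41 (-1.69), Cdkn1a (3.12), Cebpa (-0.69), Dbp (-1.78), G6pc (1.92), Igfbp1 (3.12), Mdm2 (0.55), Per3 (-1.62), Tat (2.15), Trp53inp1 (1.78), Tsc22d3 (1.98) and Zbtb16 (3.38).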

How the results depend on the processing

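The count of 4 Het genes was 9 at an adjusted p under 0.10, 424 with DESeq2, 0 with limma-voom, 2 with a 1.5-fold minimum, 1 with the legacy quasi-likelihood method, 1 with transcript length and GC offsets and 40 with all 19 libraries; it ranged from 0 to 3 when 1 mouse was left out. It was 4 with DESeq2 size factors, with a 1 CPM filter and on thinned counts, 3 with library totals only, 6 with no filter and 5 with mouse number as a number. The count of 63 genes for Het minus WT was 285 with DESeq2 and ranged from 24 to 72 when 1 mouse was left out. The count of 0 for Het minus Homo was 46 with DESeq2 and 0 without any 1 mouse. The length and GC offsets and the thinning were chosen after seeing the data. Of the values for named genes under alternatives, 2630 kept direction and side of the threshold, 33 lost the call, 85 gained it and 15 changed sign. When 1 mouse was left out, log2 fold changes that changed sign ranged for Alas2 from -0.13 to 0.14, for Alb from -0.11 to 0.099, for Cr2 from -0.086 to 0.22, for Csf3r from -0.25 to 0.18, for Cux2 from -0.14 to 0.23, for Elovl3 from -0.87 to 0.078, for Ppbp from -0.32 to 0.42, for S100a8 from -0.39 to 0.24, for Serpina3n from -0.27 to 0.031. Alas2 was at 0.026 with transcript length and GC offsets. The cause was not tested. No paired analysis was possible because mouse numbers are not shared between the sets.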
